A study of Homo sapiens with 4 samples.

Results

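MYCN and 9 genes that flank it on the short arm of chromosome 2 were followed in NGP, an established human neuroblastoma line known for amplified MYCN. The 10 genes were MYCN, NBAS, DDX1, FAM49A (now also called CYRIA), VSNL1, SMC6, GEN1, TRIB2, FAM84A (now also called LRATD1) and LPIN1, matched by symbol through GENCODE release 29 among the 25693 human genes of the deposited count table. All 10 had a row. They were chosen by position, with their levels and folds in these same data in view, so levels and fold changes are given as descriptions.

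Both treatments used the same line, its cell cycle synchronised by withdrawing serum before 24 h of exposure. One group received Nutlin-3, a small molecule that keeps MDM2 from binding p53, and the other received ethanol. RNA was captured on the ddSeq droplet device with a kit that reads the 3′ end of polyadenylated transcripts. There were 4 libraries, 2 per treatment, which differed in the dilution of added ERCC spike-in RNA (1000-fold or 10000-fold).

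The table holds 250 columns per treatment, and no column name tells its library. Each treatment is therefore 1 pool with no replicate, no test was run, and no difference below has a replicate check. The pools held 1342134 human counts in ethanol and 1301232 in Nutlin-3. Column totals, ERCC included, fell into 113 large columns per treatment, from 6319 counts upward in ethanol and 5288 in Nutlin-3, and 137 small ones of at most 3598 and 3202. The names of 219 columns occurred in both treatments, and these included all 113 large columns of each. The values are called columns and not cells for that reason. Intervals are 95% intervals for counting error alone, and in pooled sums fewer cells and less RNA per cell cannot be told apart.

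MYCN is a transcription factor of the MYC family that pairs with MAX to bind E-box DNA and drives growth and proliferation. Extra copies of its gene mark a high-risk form of neuroblastoma, and the amplified stretch can carry neighbours such as DDX1 and NBAS along with it. A gene inside such a stretch has more templates but need not be transcribed in proportion, and copy number was not analysed here. The labelled line was checked against its markers. All 10 noradrenergic neuroblastoma markers passed the low-count filter and summed to 1643 CPM (counts scaled to the TMM-adjusted human total of the pool, TMM being a trimmed-mean normalisation) in ethanol and 1862 in Nutlin-3. Of 7 mesenchymal markers, 6 were in the table and summed to 84.8 and 68.5 CPM. The leukocyte markers PTPRC and CD3E had no row in the table used here, while LYZ and CD14 summed to 23.1 and 43.1 CPM, of which LYZ counted 24 under ethanol and 49 under Nutlin-3, and the part of such RNA in the differences below was not tested.

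Promoter windows are shown for the gene at the centre of the segment (MYCN), its nearest protein-coding neighbour among the members (DDX1) and the member with the largest fold change (VSNL1). They are RefSeq reference sequence on GRCh38.p14, from 250 bases before the annotated start to 50 after it, each on the plus strand, and 9 of the 10 members matched the promoter table, FAM49A being the one without an entry. Capitals mark matches to the motifs searched.
MYCN (chr2:15940300-15940599): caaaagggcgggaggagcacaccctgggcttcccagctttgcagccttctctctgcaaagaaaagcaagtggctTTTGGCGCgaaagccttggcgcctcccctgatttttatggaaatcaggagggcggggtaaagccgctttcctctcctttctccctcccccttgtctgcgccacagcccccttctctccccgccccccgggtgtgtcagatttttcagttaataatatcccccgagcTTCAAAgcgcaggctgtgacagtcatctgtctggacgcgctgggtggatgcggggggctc
DDX1 (chr2:15591618-15591917): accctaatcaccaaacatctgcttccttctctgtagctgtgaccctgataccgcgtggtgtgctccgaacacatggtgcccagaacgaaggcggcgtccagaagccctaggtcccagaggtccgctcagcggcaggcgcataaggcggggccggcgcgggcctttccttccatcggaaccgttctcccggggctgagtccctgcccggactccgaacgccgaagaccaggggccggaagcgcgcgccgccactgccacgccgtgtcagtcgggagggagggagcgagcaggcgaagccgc
VSNL1 (chr2:17539722-17540021): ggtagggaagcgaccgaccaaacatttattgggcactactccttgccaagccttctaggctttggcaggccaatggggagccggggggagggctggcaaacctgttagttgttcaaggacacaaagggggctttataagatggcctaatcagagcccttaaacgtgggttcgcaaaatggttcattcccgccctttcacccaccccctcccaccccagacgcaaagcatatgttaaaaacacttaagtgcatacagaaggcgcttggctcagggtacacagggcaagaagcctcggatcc

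The motifs were the E-box CACGTG, the E2F sites TTTCCCGC and TTTGGCGC and the cell cycle homology element TTTGAA, each on both strands, with no overlap between the matches. Of the 9 windows, 0 held CACGTG, against 7.26% of 35116 promoter windows of that length. TTTGGCGC was found in 1, that of MYCN, 176 bases before the start, against 0.652% of all windows. TTTGAA was also found in 1, again MYCN, on the opposite strand 10 bases before the start, against 15.2% of all. TTTCCCGC was found in 0 of the 9 and in 1.63% of all. The MYCN window was 58.7% G and C, that of DDX1 67.0% and that of VSNL1 53.7%, and the median of all windows was 58.7%. A match is a stretch of letters and not a measured site.

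MYCN (ENSG00000134323, GRCh38 chromosome 2, 15940564 to 15947007, plus strand) had 1140 counts in ethanol (95% Poisson interval 1075 to 1208) and 877 in Nutlin-3 (820 to 937). Scaled to the pool, its level was 848 CPM in ethanol (800 to 899) and 675 CPM in Nutlin-3 (631 to 721). It ranked 8 by counts among all genes in both pools. Nutlin-3 over ethanol, MYCN had a log2 fold change of -0.33 (-0.46 to -0.20), beside a median of 0.00 over the 14830 genes that passed the low-count filter. The antisense gene MYCNOS overlaps MYCN by 1686 bases and counted 167 under ethanol and 148 under Nutlin-3. The overlap holds the 5′ ends of both gene models, while the kit reads 3′ ends. Whether part of either count belongs to the other gene was not tested.

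The lower MYCN count in Nutlin-3 was seen in the large columns, at 692 against 928 counts, which is -0.38 (-0.53 to -0.24) on the log2 scale. Among small columns it was 185 against 212 counts, with a value of -0.09 (-0.38 to 0.20) whose interval includes 0. Of the 137 small columns per treatment, 98 in Nutlin-3 and 88 in ethanol held exactly 1 MYCN count, and 1 and 0 held none. The variance there was 0.464 of the mean in Nutlin-3 and 0.788 in ethanol, below that of the Poisson counts the interval assumes. With most columns of both treatments at the same count, this value cannot show whether MYCN differed in small columns. Scaling the pools to their ERCC counts, 2989 in ethanol and 4007 in Nutlin-3, shifts each gene by the same -0.47, which put MYCN at -0.80 and the median of all genes at -0.47. The libraries received ERCC RNA at different dilutions and cannot be told apart in the columns, so these pooled ERCC totals also depend on an unknown mix of libraries and give no absolute scale.

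Between genes, levels were compared per kilobase of merged exons. MYCN stood at 326 CPM per kb in ethanol (307 to 345), above 99.8% of the 14797 filtered genes with a length. DDX1, an RNA helicase of the DEAD-box family, came next among the members at 36.7 CPM per kb (31.6 to 42.3). TRIB2 at 26.3, VSNL1 at 21.4 and FAM49A at 20.1 CPM per kb followed, with intervals that overlap between neighbours in that order. FAM84A at 11.2, SMC6 at 10.5, NBAS at 9.73, LPIN1 at 9.22 and GEN1 at 8.18 CPM per kb formed the low end, again with overlapping neighbours. The members at the low end also had the longest merged exons, from 8384 bases in FAM84A to 11861 in LPIN1, against 2602 in MYCN. With a kit that reads 3′ ends, dividing by length lowers long genes, so this order partly follows length. The ratio of MYCN to DDX1 on this scale was 8.89 and that of MYCN to GEN1 39.9. In CPM, not divided by length, these ratios were 6.03 and 8.77.

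The kit reads the 3′ end of each transcript, so levels are also given without dividing by length. In CPM the 9 neighbours lay close together in ethanol, from 81.8 in VSNL1 (67.3 to 98.6) to 141 in DDX1 (121 to 162), and MYCN exceeded them 6.03-fold to 10.4-fold. In CPM, not divided by length, MYCN thus stood above the members on either side of it, DDX1 at 0.349 Mb before its start and FAM49A at 0.609 Mb after it. The 33 other protein-coding genes that passed the filter and start between 8 and 21 Mb of the chromosome had a median of 88.5 CPM in ethanol and reached at most 208 CPM in YWHAQ. The nearest of them with at least 50 CPM on each side of the members were GREB1 at 84.1 CPM and RDH14 at 81.8 CPM, within the range of the neighbours.

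**Figure D1:**
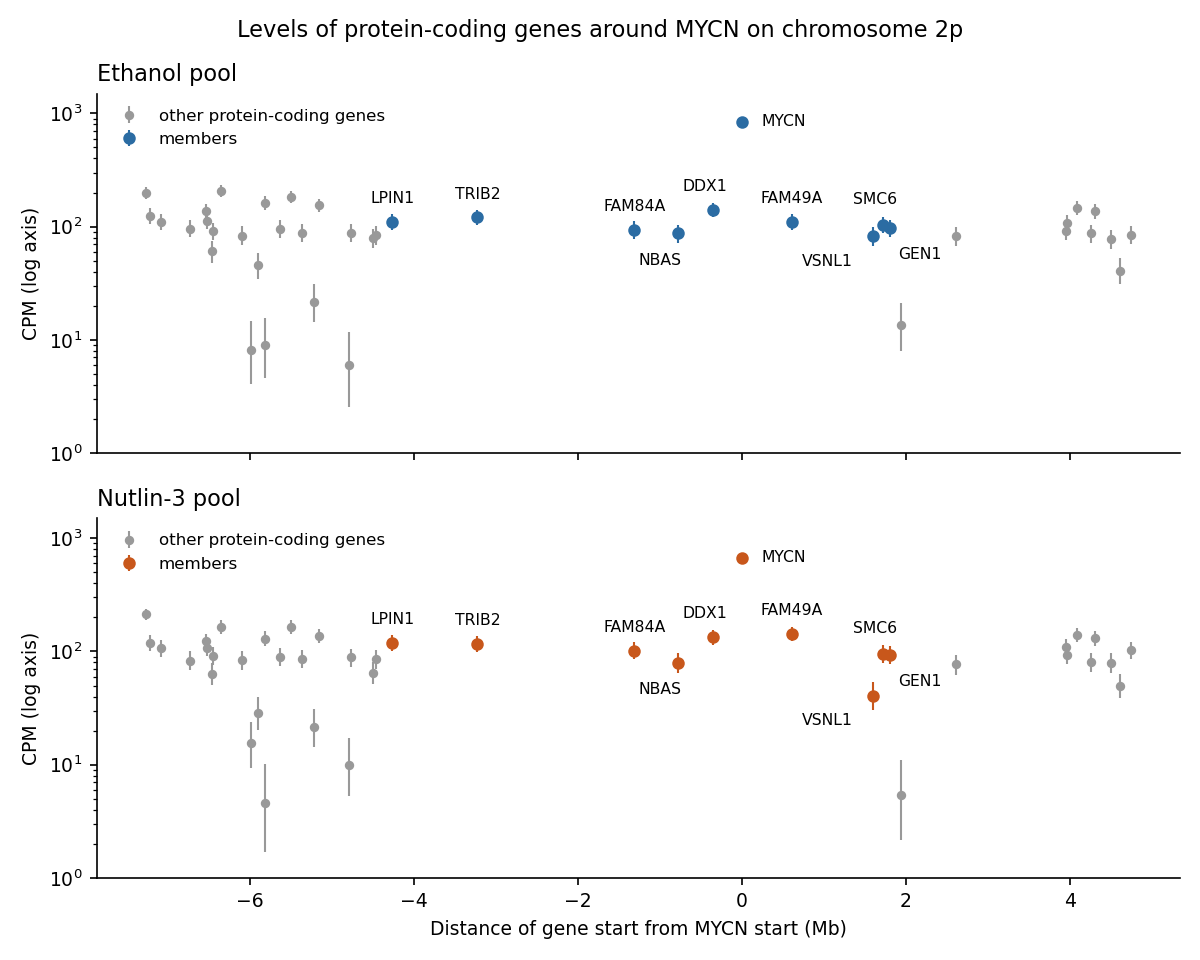
Level of each protein-coding gene between 8 and 21 Mb of chromosome 2 that passed the low-count filter, in CPM on a log axis that is not divided by gene length, against the distance of its start from that of MYCN in Mb. Bars are 95% Poisson intervals of the pooled count. MYCN stands at 848 CPM in ethanol and 675 in Nutlin-3, while the other members lie between 81.8 and 141 CPM in ethanol.

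What a count could show differed between MYCN and its neighbours. In the large ethanol columns the 9 other members gave 1017 values, of which 874 (85.9%) were exactly 1, 41 were 0, 90 were 2 and 12 were 3 or more. In Nutlin-3, 839 of 1017 (82.5%) were exactly 1 and 93 were 0. Over all filtered genes 57.1% of the values in large ethanol columns were 1 and 5.19% were above 1. A mean of 0.8 to 1.3 counts per large column, which 9 of the 10 members had in ethanol, was shared by 41.4% of the filtered genes. A mean above 2, which MYCN alone had among the members, was seen in 0.958% of them. The narrow range of the neighbours in CPM was thus measured where nearly every large column held 1 count.

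In the small columns the members were spread further apart. There MYCN was at 1397 CPM in ethanol, DDX1 at 297, TRIB2 at 224 and FAM49A at 165 CPM, while NBAS was at 52.7 CPM from 8 counts. The MYCN level was 4.71-fold that of DDX1 and 26.5-fold that of NBAS in these columns, against 6.44-fold and 8.51-fold in the large ones, all from CPM in ethanol. MYCN was exactly 1 count in 88 of the 137 small ethanol columns, whose median total was 871 counts. Its CPM there thus largely follows the column totals, and these ratios are not a measure of relative expression.

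**Figure D2:**
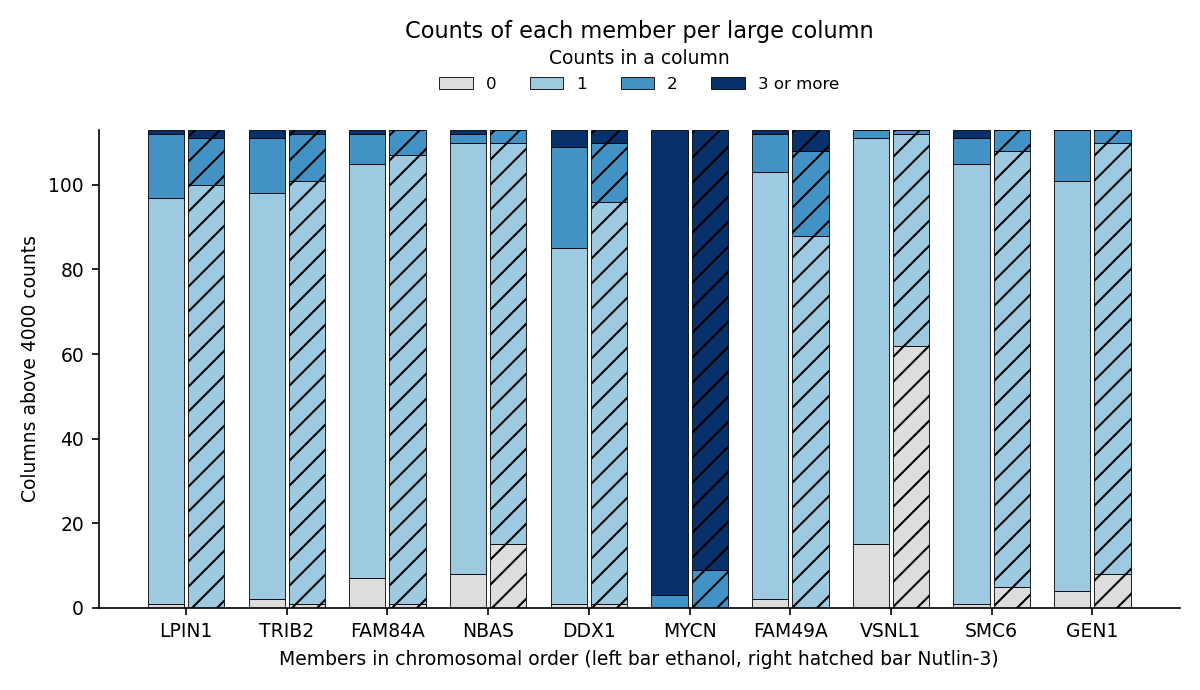
Number of large columns (above 4000 counts, 113 per treatment) that held 0, 1, 2 or at least 3 counts of each member, with ethanol as the plain left bar and Nutlin-3 as the hatched right bar. Most columns held a single count of each member, apart from MYCN in both treatments and VSNL1 in Nutlin-3; MYCN had 3 or more in 110 ethanol and 104 Nutlin-3 columns, and VSNL1 had 0 in 62 Nutlin-3 columns against 15 in ethanol.

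MYCN was present nearly everywhere. Each of the 113 large columns of each treatment held it, with 2 to 53 counts (median 8) under ethanol and 2 to 47 (median 5) under Nutlin-3. The middle 50% of columns held 6 to 10 counts in ethanol and 4 to 7 in Nutlin-3, so the treatments overlapped. All 137 small ethanol columns and 136 of 137 in Nutlin-3 also held at least 1 count, and the median small column held 1 in both. Only 20 genes in ethanol and 19 in Nutlin-3 were seen in at least 95% of the small columns, 9 and 10 of them mitochondrial, while the median filtered gene was seen in 2.92% of them.

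At a common depth of 700 counts MYCN was seen in 95 of 194 ethanol columns, which is 49.0% (exact binomial 95% limits 41.7 and 56.2), and in 77 of 187 Nutlin-3 columns, or 41.2% (34.0 to 48.6). These limits take columns as independent draws within a pool and hold no spread between libraries, so they do not compare the treatments. Shallower columns, 56 in ethanol and 63 in Nutlin-3, were left out. Without thinning the shares were 100% and 99.6% of 250, at median totals of 2294 and 2020.5 counts. The line holds no cell type that should lack MYCN, so no background share from free RNA can be given.

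Large columns could be set side by side by name, since all 113 names occurred in both treatments. MYCN was lower in the Nutlin-3 column for 84 names, equal for 13 and higher for 16. MYCN counts of same-named columns had a Spearman correlation of 0.61 over the 113 names, and the human totals of those columns one of 0.51. These points share depth, and what else same-named columns share was not tested. The pools are therefore not known to be independent. A single name held the top count in both treatments, 53 in ethanol and 47 in Nutlin-3, or 5642 and 5711 CPM. Its columns held 9393 and 8230 human counts. The next highest counts were 16 and 12. Without that name the MYCN fold change was -0.34, and the Spearman correlation of MYCN counts was 0.60.

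**Figure D3:**
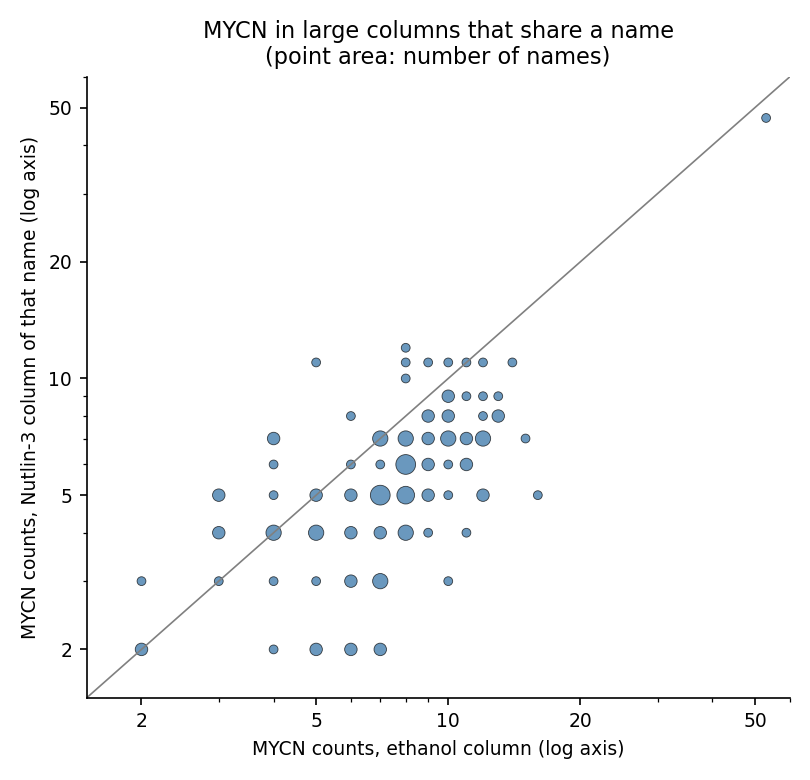
MYCN counts in the 113 large columns of each treatment, matched by column name, with ethanol on the x axis and Nutlin-3 on the y axis (log axes); the area of a point gives the number of names and the line marks equal counts. There are 84 names below the line and 16 above it, and 1 name stands apart at 53 and 47 counts.

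Genes whose CPM over the large columns ranked most like MYCN, among 3119 genes with at least 1 count per large column, were the mitochondrial transcripts MT-CYB, MT-CO3 and MT-ND4. Their Spearman correlations, averaged over both treatments, were 0.43, 0.41 and 0.40, while the central 95% of genes lay between -0.37 and 0.14. Of the members with enough counts, TRIB2 was at -0.17, DDX1 at -0.17 and FAM49A at -0.27, while SMC6 was at -0.29, LPIN1 at -0.30 and FAM84A at -0.35, around a median gene at -0.25. MYCN counts themselves rose with the human total of the column, with a Spearman correlation of 0.66 in ethanol and 0.65 in Nutlin-3. These correlations are descriptions across columns that share depth. Where a gene holds 1 count in nearly every large column, its CPM ranks mostly by the column total. The values of the members therefore do not show how those genes vary with MYCN. MT-CYB, MT-CO3 and MT-ND4 held 10.3 to 14.4 counts per large ethanol column, where 0.958% of filtered genes had a mean above 2. Few genes could vary as far, so their place at the top is not read as a link with MYCN.

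The other members were then compared between treatments. Of the 10 members, 7 were lower and 3 higher in Nutlin-3, where 49.7% of all filtered genes were lower and 50.3% higher (scaled to ERCC counts, all 10 were lower, as were 89.7% of filtered genes). All 10 passed the filter, and their median log2 fold change was -0.06 beside 0.00 for all filtered genes. The counting interval lay below 0 for MYCN and VSNL1, as it did for 3.54% of filtered genes, and above 0 for FAM49A, as for 4.61%. Only VSNL1 was at -0.5 or less on the log2 scale, where 7.42% of filtered genes lay, and 0 members were at 0.5 or more, where 9.51% lay. For the other 7 members the interval included 0.

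The filter admits many genes with few counts, so the members, all with a mean of at least 50 CPM, were also set beside the 8844 genes of that level. Of those, 52% were lower and 48% higher, and the interval lay below 0 for 2.13% and above 0 for 2.13%. A change of -0.5 or less, as in VSNL1, was seen in 0.95% of them and one of 0.5 or more in 0.984%. On the TMM scale VSNL1 and FAM49A, both after MYCN, stood on opposite sides of 0. The sign of FAM49A depended on the scaling, being -0.08 on ERCC counts, and 7 members had intervals that include 0. Whether the folds form a block along the segment was not tested.

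VSNL1 (ENSG00000163032, chromosome 2, 17539126 to 17657018), a calcium sensor of neurons, counted 110 under ethanol and 53 under Nutlin-3 and differed by -0.998 (-1.51 to -0.52) on the log2 scale. VSNL1 was at 0 or 1 count in nearly every large column, so a lower sum shows mainly as fewer columns that hold it. It had at least 1 count in 98 of 113 large ethanol columns, or 86.7% (79.1 to 92.4), and in 51 of 113 in Nutlin-3, or 45.1% (35.8 to 54.8). By name, 53 large columns held it in ethanol only, 6 in Nutlin-3 only, 45 in both and 9 in neither. Its small columns held 10 counts and 1 count. At 700 counts it was seen in 6.70% of ethanol (3.62 to 11.2) and 1.60% of Nutlin-3 columns (0.332 to 4.62). The limits of these shares take columns as independent draws within a pool and do not compare the treatments.

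FAM49A (ENSG00000197872, chromosome 2, 16549459 to 16666331), whose product binds Rac1 and restrains actin remodelling, counted 147 under ethanol and 186 under Nutlin-3. Its log2 fold change of 0.39 (0.07 to 0.71) was -0.08 when scaled to ERCC counts, by the shift common to all genes. In the large columns alone it was 0.27 (-0.09 to 0.63), with 143 against 122 counts. In the small columns it was 0.88 (0.15 to 1.66), with 43 against 25. Large columns with at least 2 counts numbered 25 in Nutlin-3 and 10 in ethanol.

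DDX1 (ENSG00000079785, chromosome 2, 15591178 to 15631111) and NBAS (ENSG00000151779, chromosome 2, 15166909 to 15561330) are the nearest neighbours before MYCN. DDX1 counted 189 under ethanol and 174 under Nutlin-3, a log2 fold change of -0.07 (-0.38 to 0.23). NBAS, part of a complex that tethers vesicles at the endoplasmic reticulum, had 117 and 103 counts and a value of -0.13 (-0.53 to 0.26). Both intervals span 0 and lie partly over that of MYCN. NBAS was missing from 8 large ethanol and 15 large Nutlin-3 columns, while DDX1 was missing from 1 in each.

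SMC6 and GEN1 both serve genome maintenance, as a subunit of the SMC5/6 complex and as a resolvase that cuts Holliday junctions. SMC6 (ENSG00000163029, chromosome 2, 17663812 to 17800242, minus strand) counted 139 under ethanol and 124 under Nutlin-3, a log2 fold change of -0.12 (-0.48 to 0.24). GEN1 (ENSG00000178295, chromosome 2, 17753858 to 17788941, plus strand) had 130 and 121 counts and a value of -0.05 (-0.42 to 0.31). By the outer bounds of the GENCODE models GEN1 lies inside SMC6 on the other strand, over 35084 bases. Their RefSeq promoter windows, taken from other transcript models, overlap by 158 bases. Strand handling in the counting is not given in the sources used here, so their counts are uncertain against each other.

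LPIN1, TRIB2 and FAM84A lie farther before MYCN, their starts at -4.26 to -1.31 Mb from its own. LPIN1 (ENSG00000134324, chromosome 2, 11677595 to 11827409), a phosphatidate phosphatase of lipid synthesis, counted 147 under ethanol and 154 under Nutlin-3, a log2 fold change of 0.12 (-0.22 to 0.45). TRIB2 (ENSG00000071575, chromosome 2, 12716889 to 12742734), a pseudokinase of the Tribbles family, had 162 and 151 counts and a value of -0.05 (-0.38 to 0.28). FAM84A (ENSG00000162981, chromosome 2, 14632686 to 14650814) had 126 and 132 counts and a value of 0.12 (-0.25 to 0.48). None (0) of the 3 intervals excluded 0, and scaled to ERCC counts the values of LPIN1 and FAM84A were both -0.36.

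**Figure D4:**
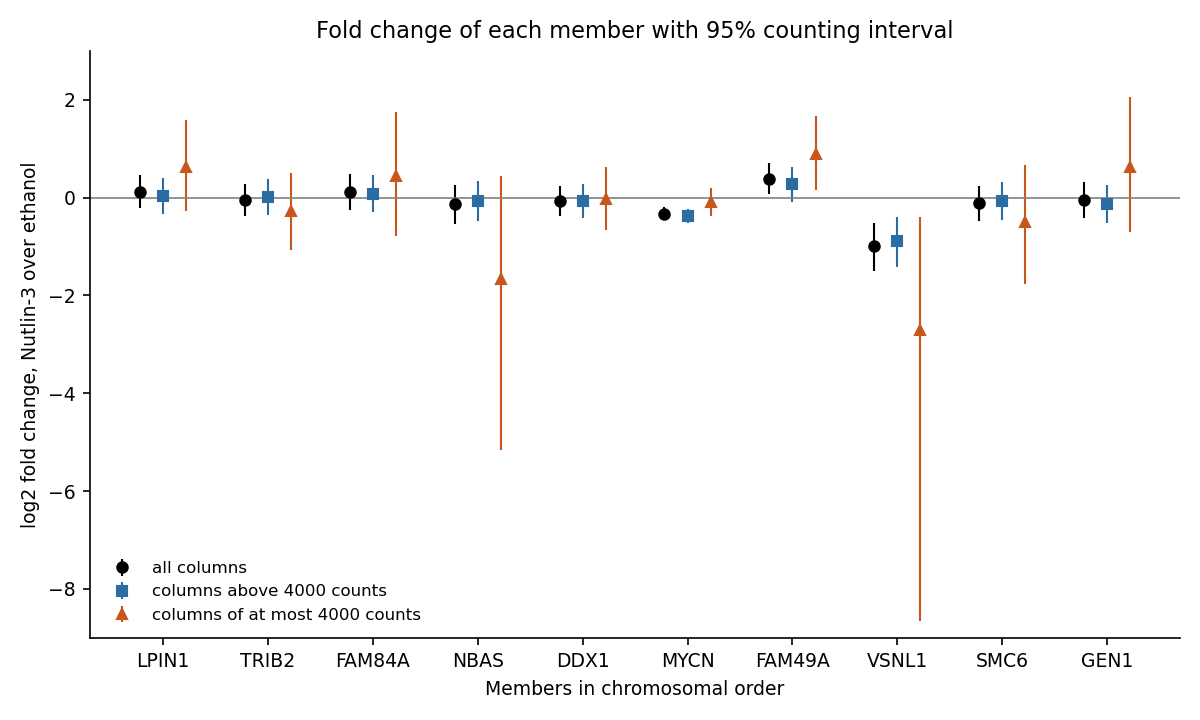
Log2 ratio, Nutlin-3 over ethanol, for each member in chromosomal order, with 95% counting intervals, from all columns (circles), columns above 4000 counts (squares) and columns of at most 4000 counts (triangles). The interval of VSNL1 lies below 0 in all 3 sets. That of MYCN lies below 0 in all columns and in large columns, and that of FAM49A above 0 in all columns and in small columns. The intervals of small columns are wide because few counts stand behind them.

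The rest of the window and the targets of MYCN gave the setting for these values. Of 36 other protein-coding genes between 8 and 21 Mb, 33 passed the filter, 21 of them lower and 12 higher in Nutlin-3, with a median log2 fold change of -0.05 against the same background. The interval lay below 0 for 3, which were YWHAQ, KLF11 and RRM2, and above 0 for none (0). Among all filtered genes 3.54% lay below 0 and 4.61% above. RRM2, a subunit of ribonucleotide reductase, counted 218 under ethanol and 169 under Nutlin-3, a value of -0.32 (-0.62 to -0.02). ODC1, the first enzyme of polyamine synthesis and a known MYCN target in the same window, had 247 and 214 counts, a value of -0.16 (-0.43 to 0.11). ID2, an inhibitor of bHLH factors, had 266 and 276 counts and a value of 0.10 (-0.15 to 0.35).

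Of 22 textbook targets that MYC proteins activate, all passed the filter, 17 were lower and 5 higher in Nutlin-3, where 49.7% of all filtered genes were lower, and their median log2 fold change was -0.13 beside 0.00 for all. The interval lay below 0 for 3 of them, namely LDHA, CDK4 and MCM7, and above 0 for none (0). Among filtered genes 3.54% lay below 0 and 4.61% above. Every target had a mean of at least 50 CPM. Of genes at that level 52% were lower, 2.13% had an interval below 0 and 2.13% above. Their values ran from -0.57 in LDHA (-0.82 to -0.32), the lactate dehydrogenase subunit, with 350 counts in ethanol and 228 in Nutlin-3, to 0.13 in NPM1 (-0.10 to 0.35), a nucleolar chaperone, with 328 and 346. No set test was run, and nothing particular to the list is read from these counts.

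Noncoding genes near MYCN were read in the same way. Within 2 Mb on either side of it the table holds 16 noncoding genes, of which 6 had at least 10 counts over both treatments. The counting interval of the log2 fold change lay above 0 for 2 of them and below 0 for none (0), where 5.27% of 4233 such genes of the table had an interval above 0. AC104623.2 (chromosome 2, 16541690 to 16545695), an unconfirmed transcript 3763 bases beyond the end of FAM49A, counted 4 under ethanol and 22 under Nutlin-3, a log2 fold change of 2.37 (0.95 to 4.51). AC010745.1, a lincRNA at 16202430 to 16204226, had 2 and 16 counts, and a value of 2.77 (0.96 to 6.21). All of these counts lay in large columns. Both genes were chosen after their values were seen, and strand handling in the counting is not given in the sources used here.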

How the data were processed

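The authors deposited 1 table of whole-number counts per gene and column, 25693 Ensembl genes and 62 ERCC species over 500 columns; per the file headers each column is 12 bases and the word treated or untreated. These words were read as Nutlin-3 and ethanol, leaving 0 columns unassigned. Aligner, genome build, annotation and the handling of barcodes and molecular tags were not given in the sources used here. Human counts were summed per treatment and scaled with TMM factors from edgeR 4.0.16 in R 4.3.3. The filter (filterByExpr, minimum 10) kept 14830 genes. Log2 fold changes had 0.5 counts added. Intervals are exact binomial (fold, share) or exact Poisson (count). The fold intervals were checked only on simulated Poisson pools, the model they assume, so the check does not cover other kinds of spread. Poisson counts have a variance equal to their mean. Over large ethanol columns the variance divided by the mean was 3.26 for MYCN and at most 0.228 (DDX1) for the other members. The MYCN value includes a single column of 53 counts, where the next highest held 16, so it does not describe the columns in general. Over small ethanol columns it was 0.788 for MYCN. Columns were split at 4000 counts or thinned to 700 (numpy 2.4.6, scipy 1.17.1, pandas 2.3.3, Python 3.11.15). Symbols, positions and exon lengths come from GENCODE release 29 on GRCh38, matched for 25602 genes, a build that need not be the authors'. Members, gene lists and naming rule (all members; ODC1, RRM2, ID2 and the nearest expressed flanking genes; extremes of lists; the 3 genes most like MYCN) were chosen with earlier results of these data known. YWHAQ, KLF11, CDK4 and MCM7 were named after their values were seen. Doublets were not called, every library being of NGP. Of the leukocyte list, PTPRC, CD3E, CD14 and LYZ are reported and the rest is not reported here.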

Additional observations from a re-analysis of the deposited data

How the results depend on the processing

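No paired analysis was possible because the replicate numbers belong to libraries and the columns name no library, which leaves 1 pool per treatment; same-named columns were only set side by side. Leaving out each library and a test over libraries were not run for the same reason. MYCN was lower in Nutlin-3 by sign under all settings run, which draw on the same pools and are not independent checks. Scaling to ERCC counts gave a MYCN log2 fold change of -0.80 and levels of 999 CPM in ethanol and 573 in Nutlin-3, moved the median of the members to -0.53 beside -0.47 for all genes, turned FAM49A to -0.084 and left all 10 members lower, all by one shift common to every gene. Small columns alone gave a MYCN change of -0.086, with an interval that includes 0, and levels of 1397 and 1315 CPM. Most of these columns held exactly 1 MYCN count in both treatments, so this change cannot show whether MYCN differed there. Columns weighted equally gave -0.13, with 1416 and 1292 CPM. Large columns alone gave 778 and 597 CPM. The 31 columns per treatment whose names occur in 1 treatment, all small, gave 2017 and 1694 CPM. Their MYCN change was -0.25, beside a median of -0.22 for all genes, so there MYCN hardly differed from the background. Per kb of exon the ethanol level was 326 CPM. Of 117 fold changes of the other 9 members over all settings, 95 stayed within their counting spread, 21 moved and 1 whose interval had excluded 0 (FAM49A) turned. These settings include leaving out the low-count filter, which cannot change a fold, and adding 1 count, which hardly does. In small columns 3 of 9 values stayed, and among names in 1 treatment 4 of 9. Leaving out the column name highest in MYCN was chosen after seeing the data and gave a MYCN change of -0.34. In small columns VSNL1 counted 10 under ethanol and 1 under Nutlin-3 and NBAS had 8 and 2, so depth limits what these columns can show.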
